A study of Mus musculus with 4 samples.

Results

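Proneural and neurogenic bHLH genes code for basic helix-loop-helix transcription factors that turn cortical progenitors into neurons and carry the new neurons through differentiation. The 9 genes described here were chosen by name: Neurog1, Neurog2, Neurod1, Neurod2, Neurod4, Neurod6, Nhlh1, Nhlh2 and Bhlhe22. They were chosen with earlier results of these data known, so shares of members called are not from a blind choice. All 9 were found, once each, among the 22770 genes of the deposited table. As background, factors of this family pair with broadly expressed E proteins and bind a short DNA motif, the E-box. In dorsal telencephalon the neurogenins act in progenitors, Neurod1, Neurod4 and Nhlh1 follow in cells leaving the cycle, and Neurod2, Neurod6 and Bhlhe22 mark postmitotic excitatory neurons. Pax6, a paired-domain factor of dorsal progenitors, is known to act upstream of Neurog2.

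Cerebral cortex was taken at embryonic day 16.5 from mice homozygous for the Pax6 allele Sey (2 libraries) and from wild-type littermates (2 libraries), both on a mixed C57BL/6J, 129S6 and CD1 background. Libraries were made from total RNA, and each gene has 1 FPKM value a library, that is, fragments scaled by exon length and by the library's mapped fragments. The comparison asks how loss of Pax6 function changes cortical RNA. The labels do not say that each library is a separate embryo, so the p-values measure only the spread between these libraries, which may in part be technical. The allele is constitutive, so every cell of the embryo carried it.

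Between 13682 and 13875 genes reached 1 FPKM in a library. FPKM keeps no read totals, but the steps between the lowest values place depth, relative to wild-type library 1, at 0.866 in mutant library 1, 1.19 in mutant library 2 and 0.783 in wild-type library 2. Pax6 RNA itself was 101 and 120 FPKM in mutants, against 28.8 and 27.0 FPKM in wild types. The Sey change alters a single base and the RNA is still made, so this level does not check the genotype. Mutant library 1 stood apart in sex-linked genes, with 350 FPKM of Xist, against 0.131 in mutant library 2 and 0.0788 to 0.224 in wild types. The Y-linked gene Ddx3y was listed at 0 there, against 23.3 FPKM in mutant library 2 and 17.6 and 16.5 FPKM in wild types. So mutant library 1 alone was of female type, and sex was not balanced between the groups. As for the tissue label, the cortical neuron gene Tbr1 lay between 59.3 and 117 FPKM in the 4 libraries. Of 4 thalamus markers, Gbx2 was listed at 0 in 3 of the 4 libraries and at 0.174 FPKM in mutant library 1, and Tcf7l2 and Rora lay between 0.525 and 1.71 FPKM. The remaining marker, Lhx9, had 1.65 and 1.22 FPKM in mutants, against 0.301 and 0.244 FPKM in wild types, without a call (limma adjusted p = 0.0737).

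Most members of the family were lower in Pax6 mutant cortex. Of the 9 genes 8 passed the filter of 0.5 FPKM in at least 2 libraries and were tested, and Neurog1 did not. Neurog2, Neurod1, Neurod2 and Neurod6 fell (4 of 8 at a limma adjusted p under 0.05 over all 15399 tested genes, where 1.46% fell and 3.48% changed either way). 0 of 8 rose, against 2.02% of all tested genes, and 0 were higher and 7 lower at an unadjusted p under 0.05, which 19.5% of tested genes passed in either direction. The median log2 fold change of the tested members was -0.83, beside 0.00062 for all tested genes. In 7 of the 8 tested members both mutants lay below both wild types, which held for 25.8% of tested genes. In bulk tissue, fewer cells of a type and less RNA per cell cannot be told apart.

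**Figure D1:**
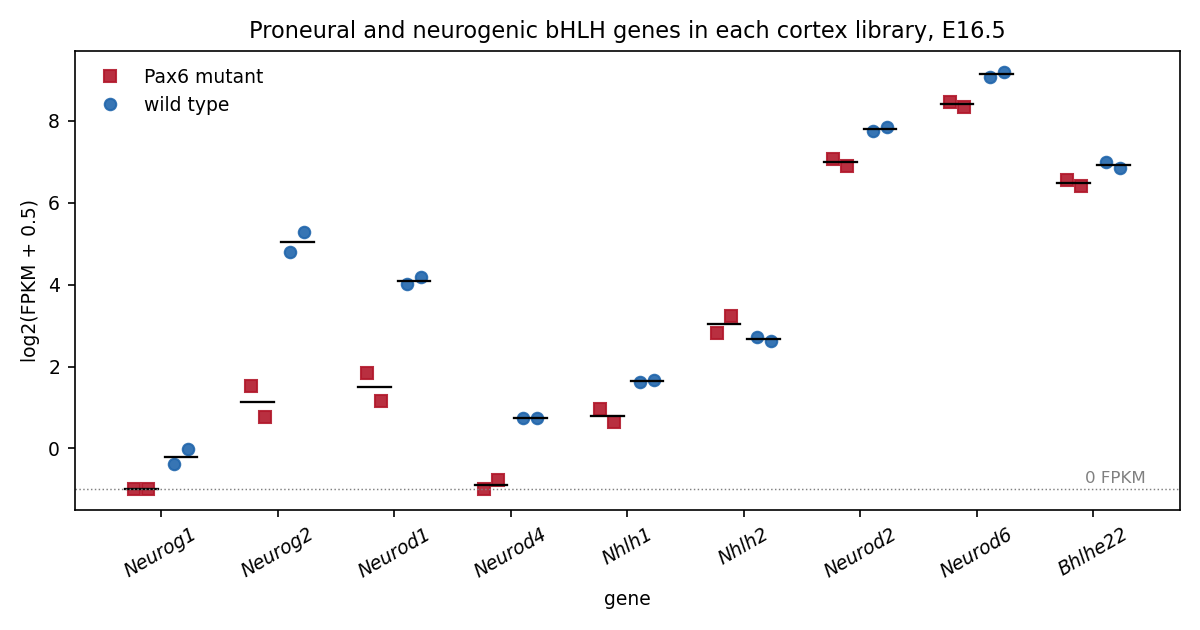
Level of each member in each library as log2(FPKM + 0.5), with Pax6 mutants as squares on the left, wild types as circles on the right and group means drawn as black lines (n = 2 libraries each); genes run from those of progenitors to those of postmitotic neurons. Neurog2 sits at 2.39 and 1.19 FPKM in mutants, against 27.1 and 38.2 FPKM in wild types, while Nhlh2 is the member whose mutants lie above its wild types.

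The neurogenins, which commit progenitors to a neuronal fate, came first in the order of action. Neurog2, the main proneural factor of the dorsal telencephalon, had 2.39 and 1.19 FPKM in mutants, against 27.1 and 38.2 FPKM in wild types. The groups did not overlap, and both mutants were far below both wild types. Neurog2 fell to 5.49% of its wild-type mean (1.79 ± 0.847 FPKM in mutants and 32.6 ± 7.85 FPKM in wild types, SD, n = 2 each; log2 fold change -3.88, SE 0.31, limma adjusted p = 0.0130). Neurog1, its close relative, was listed at 0 in both mutants and had 0.262 and 0.490 FPKM in wild types. What a single fragment is worth for Neurog1 was estimated at 0.0533 to 0.0754 FPKM across libraries, so its wild-type values rest on a few fragments and no fold change is given.

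Neurod1, Neurod4 and Nhlh1 are expressed as cells pass from progenitor to young neuron. Neurod1, a factor of intermediate progenitors and newborn excitatory neurons, had 3.08 and 1.73 FPKM in mutants, against 15.6 and 17.8 FPKM in wild types. Neurod1 fell to 14.4% of its wild-type mean (log2 fold change -2.60, SE 0.25, limma adjusted p = 0.0196), with no overlap between groups. Its exons overlap those of Cerkl on the same strand and of the noncoding Gm26755 on the other, and strand use is not stated, so its value is uncertain. Those neighbours were low in all 4 libraries, Cerkl at 0.585 to 0.883 FPKM and Gm26755 at 0 to 0.0467 FPKM.

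Neurod4, which acts in committed progenitors and, in several tissues, together with other proneural factors, was listed at 0 in mutant library 1 and at 0.0873 FPKM in mutant library 2, against 1.18 and 1.16 FPKM in wild types. The mutant 2 value is near the floor, since a single fragment of Neurod4 is worth about 0.0269 FPKM there. The difference just missed the threshold (log2 fold change -1.62, SE 0.27, limma adjusted p = 0.05001). The pseudocount sets the size for so low a gene: the log2 fold change was -3.21 with 0.1 and -1.06 with 1. In FPKM the Neurod4 mean of mutants was 3.73% of the wild-type mean, a share below that of Neurog2. The Neurod4 difference passed, at limma adjusted p = 0.0481 to 0.04996, with a pseudocount of 1, with median-centred libraries and without mitochondrially encoded genes. It did not in the other 9 of 12 alternative settings. Among those were a pseudocount of 0.1 (limma adjusted p = 0.0691), a filter of 1 FPKM (0.0641) and no filter (0.0677). Nhlh1, a factor of cells that have just left the cycle, had 1.45 and 1.06 FPKM in mutants, against 2.56 and 2.70 FPKM in wild types. The groups did not overlap, but the difference was not called (log2 fold change -0.84, 95% interval -1.40 to -0.29, limma adjusted p = 0.126).

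Nhlh2, the closest relative of Nhlh1, was the single tested member with a fold change above 0. Nhlh2 had 6.59 and 8.92 FPKM in mutants, against 6.06 and 5.65 FPKM in wild types. Both mutants lay above both wild types, an order seen in 25.8% of tested genes, and the difference was not called (log2 fold change 0.36, 95% interval -0.10 to 0.82, limma adjusted p = 0.349). Without mutant library 1 its log2 fold change was 0.57 and without mutant library 2 it was 0.16, again without a call.

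The factors of postmitotic excitatory neurons were by far the most abundant members. Their log2 fold changes were smaller in size than those of Neurog2, Neurod1 and Neurod4. That of Nhlh1 (-0.84) was near those of Neurod2 and Neurod6, and that of Nhlh2 (0.36) was smaller in size. Neurod6, which is expressed in nearly all cortical excitatory neurons, had 352 and 323 FPKM in mutants, against 534 and 588 FPKM in wild types. Neurod6 fell to 60.1% of its wild-type mean (log2 fold change -0.73, SE 0.08, limma adjusted p = 0.0219). Neurod2, which shares roles with Neurod6 in axon growth and synapse formation, had 134 and 118 FPKM in mutants, against 213 and 230 FPKM in wild types. Neurod2 fell to 57.0% (log2 fold change -0.81, SE 0.08, limma adjusted p = 0.0216). Bhlhe22, a repressor that helps set the identity and connections of cortical neurons, had 94.3 and 84.3 FPKM in mutants, against 127 and 115 FPKM in wild types, without overlap and without a call (73.9% of the wild-type mean, log2 fold change -0.44, 95% interval -0.66 to -0.21, limma adjusted p = 0.0754).

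**Figure D2:**
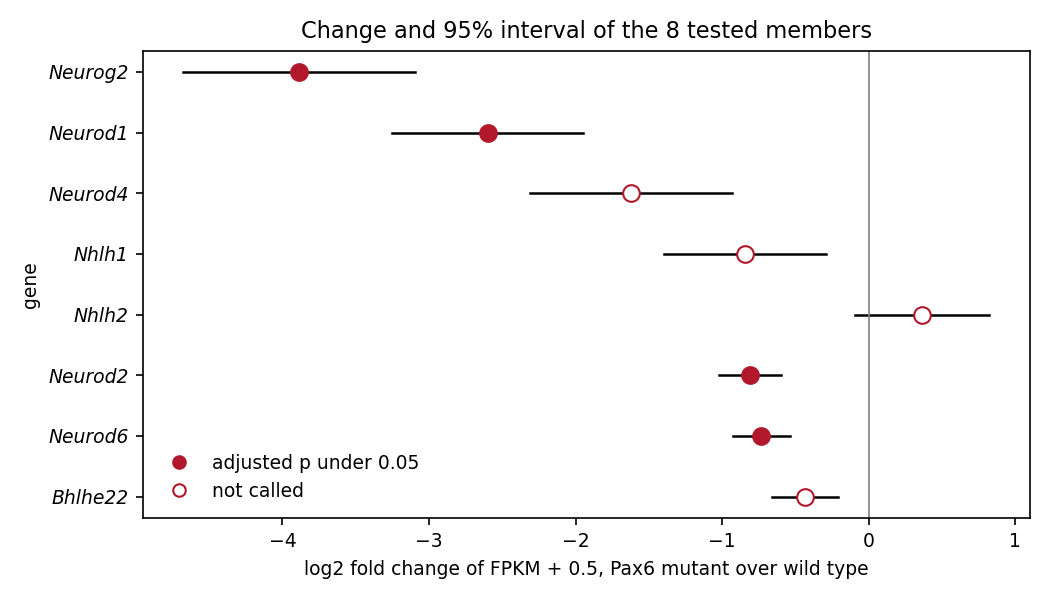
Log2 fold change of FPKM + 0.5, Pax6 mutant over wild type, of the 8 tested members with 95% limma intervals (n = 2 libraries each); filled points passed an adjusted p under 0.05. Changes run from -3.88 for Neurog2 through -0.81 and -0.73 for Neurod2 and Neurod6 to 0.36 for Nhlh2, whose interval spans 0.

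These calls rest on all 4 libraries. Without mutant library 1, Neurog2 (adjusted p = 0.0383) and Neurod1 (0.0383) were still called while Neurod2 (0.0601) and Neurod6 (0.0789) were not. Without mutant library 2, wild-type library 1 or wild-type library 2, limma called 0 of the 8, with 7, 7 and 6 lower at an unadjusted p under 0.05, and the adjusted p of Neurog2 was 0.0659, 0.117 and 0.148. It called 0 members too with no filter on low values and with no mean-variance trend, with 8 of 9 and 7 of 8 lower at an unadjusted p under 0.05. An exact two-sided permutation test of any single member gave p = 0.3333, the smallest that 2 against 2 libraries allow. In the authors' deposited table the p-value was 3.56e-13 for Neurod6, 3.75e-08 for Neurog2, 7.32e-07 for Neurod2, 0.00259 for Neurod1 and 0.0457 for Bhlhe22. It was 0.605 for Nhlh2 and 1 for Neurog1, Neurod4 and Nhlh1. By that p-value 5 of 9 members were below 0.05 and lower, beside 0.755% of the table's genes, and the test behind it is not stated.

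Because FPKM is scaled by length, levels can be ranked within a library. In the mutants the order of means ran Neurod6, Neurod2, Bhlhe22, Nhlh2, Neurod1, Neurog2, Nhlh1, Neurod4 and Neurog1. In the wild types it ran Neurod6, Neurod2, Bhlhe22, Neurog2, Neurod1, Nhlh2, Nhlh1, Neurod4 and Neurog1, and every neighbouring pair was separated in both libraries. Neurog2 thus stood in place 6 in both mutants and in place 4 in both wild types. Among mutants, Neurod1 stood above Neurog2 and Neurog2 above Nhlh1 within each library, although the values of each pair overlapped between libraries. Neurod4 and Neurog1 were not separated, since both were listed at 0 in mutant library 1. Neurod6 alone made up 59.2% and 60.0% of the FPKM summed over the 9 members in mutants, against 57.6% and 58.9% in wild types.

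Pairs of genes were also compared within each library, as the log2 ratio of FPKM + 0.5, which draws the ratios of low genes towards 0. The log2 ratio of Neurog2 to Neurod6, a progenitor factor over a neuronal one, was -6.93 and -7.58 in mutants, against -4.28 and -3.93 in wild types, a difference of -3.15. The difference was -3.43 with a pseudocount of 0.1 and -2.87 with one of 1. Relative to Eomes, the T-box factor of intermediate progenitors, Neurog2 was at -2.31 and -2.43 in mutants, against -0.87 and -0.58 in wild types. Neurod1 relative to Eomes was nearer between groups, at -1.999 and -2.037 in mutants, against -1.65 and -1.66 in wild types.

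The ratio of Neurod6 to Tbr1, a T-box factor of young cortical neurons, was 2.42 and 2.43 in mutants, against 2.26 and 2.32 in wild types. That of Neurod2 to Neurod6 was -1.39 and -1.45 in mutants, against -1.32 and -1.36 in wild types, a difference of -0.08. So the groups differed by over 3 log2 units in the first pair and by under 0.15 in each of the last 2, without overlap in any of the 5. Each of the 5 gave the smallest p of the exact two-sided permutation test, 0.3333, which adjustment over the 5 leaves as it is. Except for Neurog2 over Neurod6 the pairs were chosen after the values were seen.

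**Figure D3:**
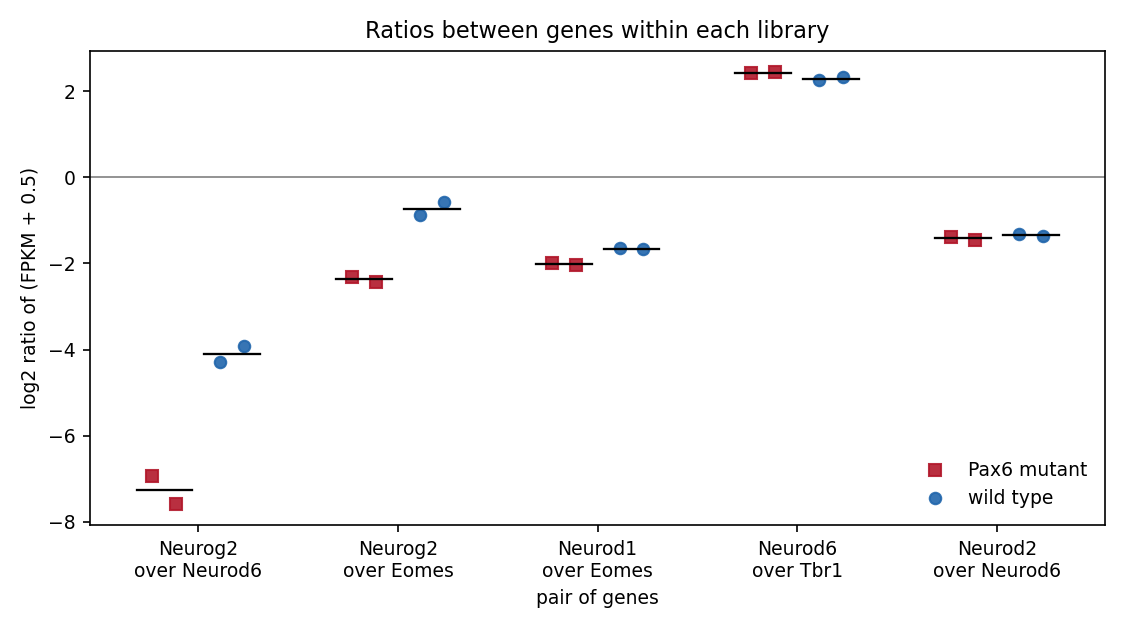
Log2 ratio of (FPKM + 0.5) between 2 genes of the same library for 5 pairs, with Pax6 mutants as squares on the left, wild types as circles on the right and group means drawn as black lines (n = 2 libraries each). Neurog2 over Neurod6 averages -7.25 in mutants and -4.10 in wild types, whereas Neurod2 over Neurod6 averages -1.42 in mutants and -1.34 in wild types.

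The members are compact genes, which the choice by name did not use. In the GENCODE M21 annotation of GRCm38 each has 1 or 2 merged exons, and their spans run from 1686 bases (Neurog1) to 12089 bases (Neurod4). Neurog2 (ENSMUSG00000027967) lies on chromosome 3 from 127633135 to 127635631, Nhlh2 on chromosome 3 from 102010076 to 102015492 and Bhlhe22 on chromosome 3 from 18054174 to 18057517. Neurod1 (ENSMUSG00000034701) lies on chromosome 2 from 79452521 to 79456751, Neurod6 on chromosome 6 from 55677822 to 55681263 and Neurod2 on chromosome 11 from 98325415 to 98329648. Neurog1 lies on chromosome 13 from 56250478 to 56252163, Neurod4 on chromosome 10 from 130268152 to 130280240 and Nhlh1 on chromosome 1 from 172052292 to 172057573. Values cover the annotated exons of a gene as a whole. Apart from Neurod1, no member shares exons with another annotated gene.

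Promoter sequence is shown for Neurog2, whose adjusted p was the lowest of the members, for Neurod2 and Neurod6, which fell to like shares of their wild-type means, and for Nhlh2, to set the E-box motif beside the values. The RefSeq table (GRCm38.p6) matched 8 of the 9 members and gave the 250 bases before 9 starts. Bases that GENCODE annotates as transcribed were left off. Capitals mark CANNTG, the E-box, which reads as CANNTG on both strands.
Neurog2 (chr3:127632886-127633134, plus strand, 249 bases): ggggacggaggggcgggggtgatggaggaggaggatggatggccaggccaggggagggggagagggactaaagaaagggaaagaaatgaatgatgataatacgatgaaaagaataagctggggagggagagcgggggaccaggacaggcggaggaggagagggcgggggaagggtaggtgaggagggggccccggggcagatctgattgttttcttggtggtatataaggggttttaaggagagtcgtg
Neurod2 (chr11:98329649-98329895, minus strand, 247 bases): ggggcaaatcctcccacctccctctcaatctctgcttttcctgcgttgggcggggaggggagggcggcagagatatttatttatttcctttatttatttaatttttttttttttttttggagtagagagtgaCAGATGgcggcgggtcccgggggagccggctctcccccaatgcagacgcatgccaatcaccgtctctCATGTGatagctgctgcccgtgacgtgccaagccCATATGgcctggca
Neurod6 (chr6:55681264-55681513, minus strand, 250 bases): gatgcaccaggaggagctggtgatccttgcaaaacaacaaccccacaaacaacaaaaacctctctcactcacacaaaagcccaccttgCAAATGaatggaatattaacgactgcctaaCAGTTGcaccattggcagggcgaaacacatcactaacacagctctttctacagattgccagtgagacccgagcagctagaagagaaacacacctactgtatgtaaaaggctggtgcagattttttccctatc
Nhlh2 (chr3:102009895-102010075, plus strand, 181 bases): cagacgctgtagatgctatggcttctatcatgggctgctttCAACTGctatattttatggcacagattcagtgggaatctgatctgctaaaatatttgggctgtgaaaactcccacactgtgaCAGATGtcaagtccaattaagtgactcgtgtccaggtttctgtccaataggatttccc
Neurog2 had 0 matches in its window. Neurod2 had 3, which began 118, 51 and 17 bases before the RefSeq start, Neurod6 had 2, at 162 and 132 bases, and Nhlh2 had 2, at 209 and 127 bases. Over the members 5 of 9 windows held CANNTG, against 66.2% of all 32851 windows, and 3 of 9 held CAGATG on either strand, against 14.4%. CATATG stood in 2 of 9 windows and in 3.46% of all, and CAGCTG in 0 of 9 windows and in 13% of all. Both of these are their own reverse complements, and all 3 are kinds of CANNTG. A match is a description of letters and says nothing on binding.

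Other genes of the bHLH network were read in lists of partners, inhibitors and targets. Of the related factors Olig2 and Olig1, which act in oligodendrocyte and ventral progenitors, neither was called. Olig2 had 11.3 and 9.63 FPKM in mutants, against 8.48 and 4.37 FPKM in wild types (log2 fold change 0.73, 95% interval -0.06 to 1.51). Olig1 had 12.3 and 9.19 FPKM in mutants, against 15.2 and 6.35 FPKM in wild types, with overlap between groups (log2 fold change 0.10, 95% interval -0.95 to 1.16).

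Of the 3 E proteins, the dimer partners, Tcf3 rose and the median was 0.30. Tcf3 had 43.2 and 43.5 FPKM in mutants, against 31.0 and 32.5 FPKM in wild types (log2 fold change 0.44, SE 0.07, limma adjusted p = 0.0418). Tcf12 and Tcf4 were not called, and Tcf4, the most abundant, had 355 and 382 FPKM in mutants, against 327 and 333 FPKM in wild types. All 3 E proteins were higher at an unadjusted limma p under 0.05, which 19.5% of tested genes passed in either direction. In all 3 both mutants lay above both wild types, an order seen in 25.8% of tested genes. Of 10 Hes, Hey and Id genes, which antagonise proneural factors except for Hes6, 2 rose, 0 fell and the median was 0.10. Id4 had 33.5 and 36.4 FPKM in mutants, against 18.7 and 22.1 FPKM in wild types (log2 fold change 0.77, adjusted p = 0.0357). Id1 had 14.7 and 14.04 FPKM in mutants, against 8.29 and 6.34 FPKM in wild types (0.94, adjusted p = 0.0484). Id4 shares exons with antisense genes, so its value is uncertain. Id3 (0.99, adjusted p = 0.199), Hes5 (0.42, 0.180) and Hes6 (0.08, 0.552) were not called, and 4 of the 10 were higher and 0 lower at an unadjusted p under 0.05. Leaving out any library in turn ended all 3 of these calls, with adjusted p of 0.146 to 0.218 for Tcf3, 0.124 to 0.193 for Id4 and 0.142 to 0.216 for Id1.

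Genes known to act downstream of neurogenins moved in both directions. Of 13 tested, 2 fell and 1 rose, with a median of 0.21, and 4 were lower and 6 higher at an unadjusted p under 0.05. Eomes had 13.8 and 8.64 FPKM in mutants, against 49.98 and 57.4 FPKM in wild types (log2 fold change -2.24, SE 0.23, limma adjusted p = 0.0204). Tbr1 had 65.5 and 59.3 FPKM in mutants, against 111 and 117 FPKM in wild types (-0.87, adjusted p = 0.0152). Gadd45g, a stress and differentiation gene, had 31.2 and 33.7 FPKM in mutants, against 21.04 and 19.2 FPKM in wild types (0.67, adjusted p = 0.0335). Eomes shares exons with an antisense gene, so its value is uncertain.

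Rnd2, a small GTPase of migrating neurons and a direct Neurog2 target, had 40.9 and 30.5 FPKM in mutants, against 60.6 and 73.7 FPKM in wild types, without a call (-0.91, adjusted p = 0.0646). The Notch ligand genes Dll1 and Dll3 had log2 fold changes of 0.26 and 0.65, above 0 and not called (adjusted p = 0.331 and 0.256). Cbfa2t2, a corepressor, was at -0.53 (adjusted p = 0.0588). The values of Rnd2, Dll1, Hes5, Olig1 and Prdm8 are uncertain, since each shares exons with a gene on the other strand.

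Among 5 genes linked to NeuroD factors or Bhlhe22, 1 fell, 0 rose and the median was -0.17, with 2 lower and 0 higher at an unadjusted p under 0.05. Cntn2, a contactin of cortical axons, had 99.1 and 91.1 FPKM in mutants, against 170 and 195 FPKM in wild types (log2 fold change -0.94, SE 0.09, limma adjusted p = 0.0188). Prdm8, the partner of Bhlhe22 in repression, had 8.32 and 6.50 FPKM in mutants, against 13.5 and 14.7 FPKM in wild types (-0.90, adjusted p = 0.0521). Cdh11, which that complex represses, and Robo1 were at -0.17 and 0.04 and were not called. Leaving out any library in turn ended the calls of Tbr1 (adjusted p = 0.0575 to 0.168), Gadd45g (0.108 to 0.209) and Cntn2 (0.0792 to 0.155). That of Eomes held without mutant library 1 (0.0299) and was lost without mutant library 2 (0.0644), wild-type library 1 (0.158) and wild-type library 2 (0.182).

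**Figure D4:**
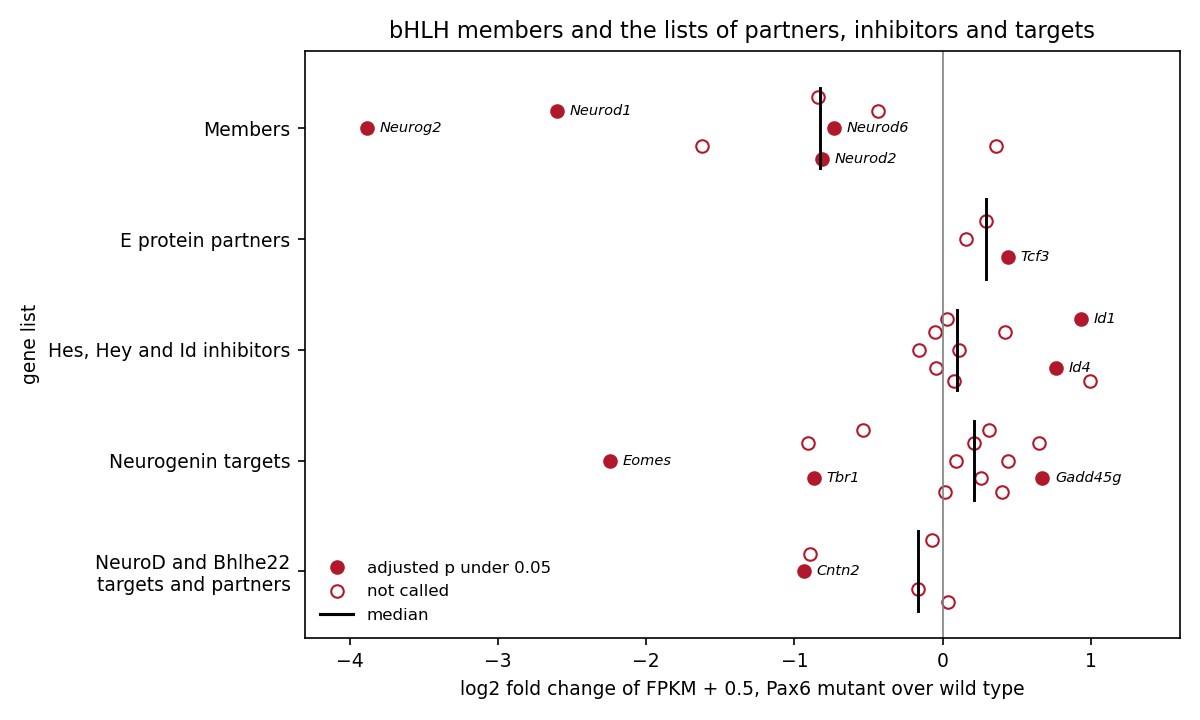
Log2 fold change of FPKM + 0.5, Pax6 mutant over wild type, of the tested members (top) and of the tested genes of 4 lists of partners, inhibitors and targets, with filled points at an adjusted p under 0.05 and a vertical bar at each median. The members have a median of -0.83, neurogenin targets one of 0.21 and the E proteins one of 0.30.

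Genes whose values ran closest to a called member were sought by the root mean square distance of log2(FPKM + 0.5) over the 4 libraries, each gene centred on its wild-type mean. Nearest to Neurod1 was Unc5d, a netrin receptor gene (distance 0.079), whose log2 fold change was -2.52 (limma adjusted p = 0.0154), then Cldn3 (0.226) and Eomes (0.255). Nearest to Neurod2 were Lrrc16b (0.00767), Frmd4a (0.0149) and Wscd1 (0.0274). For Neurod6 they were Plcxd2 (0.0276), Scrn1 (0.0289) and Scn2a1 (0.0363). For Neurog2 the nearest were Rbp7 (0.408), Veph1 (0.506) and Rlbp1 (0.617), and Rbp7 was listed at 0 in both mutants. The distance is not scaled by the size of the change, so distances are not compared between members. Cldn3, Eomes, Frmd4a, Scrn1 and Veph1 share exons with genes on the other strand. With 4 libraries in 2 groups, a small distance says that the group differences and the spread within groups were of like size.

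Markers of the cell types in the tissue differed between genotypes as well. All 8 GABAergic neuron markers rose, and their summed level was 704 and 812 FPKM in mutants, against 145 and 121 FPKM in wild types. Of 4 tested ventral progenitor markers 3 rose and 0 fell, with a sum of 530.3 and 597 FPKM in mutants, against 99.8 and 72.2 FPKM in wild types. Most of that sum came from Dlx1 and Dlx2, which the GABAergic list holds too, with Dlx1 at 388 and 449 FPKM in mutants, against 68.9 and 53.2 FPKM in wild types. The third to rise was Gsx2, at 9.87 and 8.79 FPKM in mutants, against 0.792 and 0.252 FPKM in wild types. Of 8 excitatory neuron markers 4 fell and 0 rose, with a sum of 404 and 393 FPKM in mutants, against 595 and 604 FPKM in wild types. Of 7 intermediate progenitor markers 3 fell (Eomes, Sstr2 and Unc5d) and 1, Gadd45g, rose, with a sum of 162 and 156 FPKM in mutants, against 193 and 226 FPKM in wild types. Of 8 radial glia markers Sox2 rose and 0 fell, with 2 (Slc1a3 and Pdpn) lower and 1 higher at an unadjusted limma p under 0.05. Their sums overlapped, at 798 and 804 FPKM in mutants, against 930 and 769 FPKM in wild types. Most of each sum came from Fabp7, at 526 and 525 FPKM in mutants, against 719 and 540 FPKM in wild types. Of 5 tested Cajal-Retzius markers, those of the early-born marginal zone cells, 2 (Reln and Cacna2d2) rose and 0 fell. The list summed to 90.0 and 104 FPKM in mutants, against 60.7 and 59.1 FPKM in wild types. Most of each sum came from Reln, at 68.2 and 79.0 FPKM in mutants, against 47.1 FPKM in both wild types. Trp73, Lhx5 and Ebf3 were not called (limma adjusted p = 0.330, 0.334 and 0.195).

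Of 8 vessel, meningeal and blood markers limma called 0, with 5 higher at an unadjusted p under 0.05. In 7 of the 8 both mutants lay above both wild types, an order seen in 25.8% of tested genes. The collagen gene Col1a2 stood out in mutant library 1 at 7.63 FPKM, against 1.51 FPKM in mutant library 2 and 0.739 and 0.509 FPKM in wild types. Col1a1 stood out there too, at 3.30 FPKM, against 0.802 FPKM in mutant library 2 and 0.140 FPKM in both wild types. So did Dcn, at 5.45 FPKM, against 1.34 FPKM in mutant library 2 and 0.932 and 0.141 FPKM in wild types. Microglial markers summed to 10.6 and 10.4 FPKM in mutants, against 12.9 and 17.5 FPKM in wild types. Of these 4 markers limma called 0, and 0 of 3 tested thalamus markers, with 2 microglial ones (Aif1 and P2ry12) lower and 1 thalamic one (Lhx9) higher at an unadjusted p under 0.05. Thalamus markers summed to 4.40 and 2.76 FPKM in mutants, against 2.28 and 2.75 FPKM in wild types. Choroid plexus markers summed to 0.211 and 0.491 FPKM in mutants, against 1.85 and 0.953 FPKM in wild types. Of these Ttr alone was tested, and limma did not call it (adjusted p = 0.207, lower at an unadjusted p = 0.0314).

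The part of cell type proportions in the members' differences was not tested.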

How the data were processed

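RNA of 4 cortex libraries, 2 of Pax6 Sey/Sey mutants and 2 of wild types, was analysed. The authors deposited 1 table with an FPKM value for each gene and library, a group value, a fold ratio and a p-value, per the file headers. TopHat2 2.0.9, Cufflinks 2.2.1, edgeR and the builds GRCm38.p4 and mm10 are listed in the submitters' processing notes, without roles. Whether counting used strand is not stated. The test behind the deposited p-value is not stated.

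Genes at 0.5 FPKM or more in at least 2 libraries (15399 of 22770) were transformed to log2(FPKM + 0.5) and fitted by genotype with limma 3.58.1 in R 4.3.3 (trended eBayes), with Benjamini-Hochberg adjustment over all of them and a threshold of 0.05. Fold changes are mutant minus wild type on that scale, which understates the change of low genes. The script was tested on simulated data. Named genes are the members, Pax6, set genes of the lists, up to 4 genes of each list with the smallest p and the 3 genes most alike to each called member. Members and lists were chosen with earlier results of these data known. What a single fragment is worth was estimated from the most frequent low FPKM times annotated exon length. Some genes that this rule names are not reported here.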

Additional observations from a re-analysis of the deposited data

How the results depend on the processing

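Changes of direction were looked for in the named genes and the tested members under 12 alternatives. No member changed sign, but most of these settings could not have changed it. Both mutants of each tested member lay on the same side of both wild types. So neither a left-out library nor another pseudocount could reverse the sign. The filters, the trend and the replicate block leave the fold change as it is. The sign of Olig1 changed (-0.10 without mutant library 1, -0.50 without wild-type library 2, up to 0.70 without another). So did that of Robo1 (-0.021 and -0.0023 without the same libraries, up to 0.091 without another), and neither was called. The 4 members called became 0 with no filter on low values, 0 with no mean-variance trend, and 0 to 2 when each library was left out. The 536 genes called over the table became 61, 54, and 7 to 59. Leaving out a library leaves 1 in a group, which is then assumed to vary like the other group. The cause of the drops with no filter and no trend was not tested.

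With replicate number as a replicate block, 374 genes and 5 members were called, since Bhlhe22 then passed (adjusted p = 0.0499). The block ended the calls of Tcf3 (adjusted p = 0.0678), Id1 (0.0550) and Gadd45g (0.0550). Id1 was also lost with a pseudocount of 0.1 (0.0505) and without mitochondrially encoded genes (0.0600). With no filter on low values the calls of Tcf3, Id4, Id1, Eomes, Tbr1, Gadd45g and Cntn2 were all lost (limma adjusted p = 0.0526 to 0.111). With no mean-variance trend the same calls were lost (limma adjusted p = 0.0736 to 0.132). The deviations of same-numbered libraries correlated at only 0.049 and the labels tie the numbers to no litter or day, so they are not taken as pairs. The difference in log2 ratio of Neurog2 to Neurod6 stayed between -3.47 and -2.83 over its 7 alternatives. Depth limits Neurog1 and the mutant values of Neurod4.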

Other observations

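Hes6, a Hes family gene that is known to promote rather than block neurogenesis and to follow neurogenin activity, differed little between groups, at 56.1 and 54.7 FPKM in mutants, against 53.4 and 51.4 FPKM in wild types (log2 fold change 0.08, 95% interval -0.08 to 0.24). Doublecortin (Dcx), a microtubule protein of migrating neurons of all kinds, was at 397 and 416 FPKM in mutants, against 406 and 399 FPKM in wild types, with overlap between groups (log2 fold change 0.02, 95% interval -0.12 to 0.15). The genes Insm1 and Cdk5r1, both active in differentiating neurons, had both mutants above both wild types and were not called (log2 fold changes 0.31 and 0.21, limma adjusted p = 0.0818 and 0.141). Dcx, Insm1 and Cdk5r1 were picked here after their values were seen.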
